A study of Homo sapiens with 16 samples.

Results

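The CXC chemokines described here are 7 genes, CXCL1, CXCL2, CXCL3, CXCL5, CXCL8, CXCL10 and CXCL16, picked by symbol from the 23575 gene symbols of the count table and followed through all 10 groups of the study. RNA was sequenced from HL-60, a human promyelocytic leukaemia cell line, in 16 libraries. Differentiated, neutrophil-like cells (dHL-60) were sampled at 24 h and at 4 h, each time untreated, with 1 µg/ml and with 10 µg/ml of lipoteichoic acid (LTA) from Staphylococcus aureus, with 2 libraries per group. Undifferentiated cells (uHL-60) were sampled at 24 h and at 4 h with 1 µg/ml LTA and untreated, with 1 library per group. All groups are of the same wild-type line. The sources used here do not give the agent that differentiated the cells. The labels call the dHL-60 samples duplicates without saying whether they were separate cultures, so the p-values speak only of the spread between these libraries, and part of that spread may be technical.

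CXC chemokines are small secreted proteins that call leukocytes to a site by binding G protein-coupled receptors. CXCL1, CXCL2, CXCL3, CXCL5 and CXCL8 (interleukin-8) carry a Glu-Leu-Arg motif ahead of the CXC cysteines and attract neutrophils through CXCR2, and CXCL8 also through CXCR1. CXCL10 lacks that motif, is classically induced by interferons and attracts activated T cells through CXCR3, while CXCL16 is made as a membrane protein, binds CXCR6, and is released when the protease ADAM10 cuts it. Neutrophils make CXCL8 themselves when Toll-like receptor 2 senses bacterial lipoproteins and LTA, which draws further neutrophils to an infection.

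Library totals ran from 9653374 to 20157081 counts, so that 3 counts, the limit a count of 0 allows, stood for 0.148 to 0.373 CPM (counts scaled to the size of the library) in a single library. Levels below are CPM scaled by trimmed means of M values (TMM) over all 16 libraries. The summed CPM of 15 neutrophil markers was 216 to 245 in uHL-60. In untreated dHL-60 it was 926.4 to 929.5 at 24 h and 2298 to 2622 at 4 h. Of 13 tested, 10 were lower and 0 higher there at 24 h, where 23.1% of all genes were lower. With LTA the sum was 1863 to 2659 at 24 h and 3106 to 3702 at 4 h. At 4 h 3 markers were called higher and 5 lower at each dose, where 18.7% and 20% of all genes were higher and 20.1% and 21.3% lower. The late granule genes LTF, CAMP and LCN2 were near 0 in both cell states, with at most 1.63 CPM, for CAMP. The sum of 8 monocyte and macrophage markers moved with LTA as well: it was 190 to 195 CPM in untreated dHL-60 at 24 h, 797 to 841 CPM with 1 µg/ml and 1587 to 1681 CPM with 10 µg/ml, and 577 to 744, 1308 to 1334 and 1120 to 1294 CPM in the same order at 4 h. Only 4 of the 8 could be tested. At 24 h 3 were called higher and 0 lower at each dose, where 13.9% and 23.6% of all genes were higher. At 4 h 2 were called higher and 1 lower at each dose, against the shares of all genes given above for 4 h. MSR1 was at 0 counts in 5 of the 6 dHL-60 groups. The summed CPM of 8 promyelocyte markers was lower with LTA at 24 h, with 17250 to 22640 CPM in untreated dHL-60, 6410 to 9522 with 1 µg/ml and 4975 to 6145 with 10 µg/ml. At that time 7 of the 8 were called lower at each dose, where 7.26% of all genes were lower at 1 µg/ml and 19% at 10 µg/ml. At 4 h they summed to 9282 to 12170 CPM untreated, 8599 to 9422 with 1 µg/ml and 7721 to 8787 with 10 µg/ml, and in uHL-60 to 23880 to 26610 CPM. Of 7 lymphocyte markers 2 could be tested, and NKG7 was called higher in all 4 comparisons. That list summed to 10.76 to 11.61 CPM untreated, 113.8 to 151.5 with 1 µg/ml and 210.3 to 292.4 with 10 µg/ml at 24 h, to 24.2 to 26.1, 52.3 to 58.6 and 62 to 64.6 CPM in the same order at 4 h, and CD3D, MS4A1 or both were at 0 counts in 5 of the 6 dHL-60 groups. A list of 7 eosinophil and basophil markers summed to 4154 to 4479 CPM in uHL-60 and to 2.27 to 21.66 CPM in dHL-60. In untreated dHL-60 at 4 h, 6 red cell and platelet markers summed to 35.21 to 39.15 CPM. With LTA at 4 h that sum was 1.26 to 1.49 CPM at 1 µg/ml and 22.3 to 26.1 CPM at 10 µg/ml. The part of all these markers in the chemokine results was not tested, and in bulk RNA a change in the share of cells that express a gene and a change per cell cannot be told apart.

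Of the members, 6 lie on chromosome 4 (GRCh38, GENCODE annotation). CXCL8 is at chr4:73740506-73743716 on the plus strand, and CXCL1 at chr4:73869393-73871242, also plus. CXCL5 (chr4:73995642-73998779), CXCL3 (chr4:74036589-74038807) and CXCL2 (chr4:74097035-74099293) follow on the minus strand, so that these 5 neutrophil-attracting genes span 359 kb. CXCL10 is 1.92 Mb beyond CXCL2, at chr4:76021117-76023497 on the minus strand. CXCL16 stands alone on chromosome 17, at chr17:4733526-4739922, minus strand. CXCL1, CXCL2 and CXCL3 are close paralogs: 5.13% of 50-base windows of the CXCL2 transcript occur in CXCL1 and 4.62% in CXCL3, so a small share of their reads could be split or dropped by the counting.

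RefSeq promoters (GRCh38.p14, 250 bases before to 50 after the annotated start) were found for 6 members. Promoters of 5 are shown because their genes range from among the highest RNA levels of the cells to almost none. Capitals mark matches to the NF-κB binding consensus, or in CXCL8 the 9 letters GGAATTTCC, and also the AP-1 letters of CXCL8 and the interferon-type letters of CXCL10.
CXCL8 (chr4:73740319-73740618, plus strand): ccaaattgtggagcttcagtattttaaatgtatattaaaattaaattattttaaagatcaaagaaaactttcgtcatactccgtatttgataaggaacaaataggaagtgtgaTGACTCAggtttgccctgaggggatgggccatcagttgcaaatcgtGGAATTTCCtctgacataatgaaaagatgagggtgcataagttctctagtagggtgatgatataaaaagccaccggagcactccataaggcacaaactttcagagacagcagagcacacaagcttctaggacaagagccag
CXCL2 (chr4:74099146-74099445, minus strand): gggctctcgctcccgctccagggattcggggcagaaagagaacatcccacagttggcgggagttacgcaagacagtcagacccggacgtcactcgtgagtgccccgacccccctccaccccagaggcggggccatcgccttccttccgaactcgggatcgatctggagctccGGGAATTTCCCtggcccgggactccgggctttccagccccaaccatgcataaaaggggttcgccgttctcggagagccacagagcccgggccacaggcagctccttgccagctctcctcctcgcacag
CXCL3 (chr4:74038640-74038939, minus strand): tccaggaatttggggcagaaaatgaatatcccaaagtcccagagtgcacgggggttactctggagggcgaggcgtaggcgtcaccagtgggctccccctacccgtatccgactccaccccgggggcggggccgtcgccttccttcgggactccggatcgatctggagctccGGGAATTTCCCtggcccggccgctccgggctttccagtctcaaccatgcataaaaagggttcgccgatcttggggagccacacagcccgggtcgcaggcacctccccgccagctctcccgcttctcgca
CXCL1 (chr4:73869143-73869442, plus strand): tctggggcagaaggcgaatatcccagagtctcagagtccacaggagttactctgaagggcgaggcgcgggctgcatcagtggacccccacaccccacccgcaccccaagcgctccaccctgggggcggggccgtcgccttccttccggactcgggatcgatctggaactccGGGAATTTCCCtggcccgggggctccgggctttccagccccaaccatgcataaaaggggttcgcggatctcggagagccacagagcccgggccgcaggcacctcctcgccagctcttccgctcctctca
CXCL10 (chr4:76023448-76023747, minus strand): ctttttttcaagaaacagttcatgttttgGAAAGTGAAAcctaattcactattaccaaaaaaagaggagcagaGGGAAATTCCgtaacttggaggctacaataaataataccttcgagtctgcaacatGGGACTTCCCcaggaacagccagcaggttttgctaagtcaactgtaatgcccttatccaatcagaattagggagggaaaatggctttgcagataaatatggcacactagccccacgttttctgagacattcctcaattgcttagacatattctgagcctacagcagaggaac

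The letters GGAATTTCC, which were chosen after these promoters had been read, occur on one strand or the other in all 6 of the promoters, against 0.461% of 35116 RefSeq promoters of the same length. The same letters with a further G in front are in CXCL1, CXCL2, CXCL3 and CXCL5 and in 0.145% of all promoters. Counted from the start site, this longer match begins at -79 in CXCL1 and CXCL3, -78 in CXCL2 and -91 in CXCL5, and the 9 letters of CXCL8 begin at -91. The NF-κB consensus, searched on both strands and overlapping these letters, matches 11.3% of promoters. CXCL8 has no match to it, and CXCL10 has matches beginning at -177 and -122. An AP-1 match (TGANTCA, in 7.71% of promoters) begins at -137 in CXCL8. An interferon-type match (GAAA, any 2 bases and GAAA again, in 3.57%) begins at -221 in CXCL10. CXCL1, CXCL2 and CXCL3 share CATAAAA, likewise chosen after reading and held by 3.7% of promoters, which begins at -31 in each, and CXCL8 has TATAAA at -31, a match found in 11.5%. Aligned over the whole window, CXCL1 and CXCL3 were 82.5% identical, CXCL2 and CXCL3 73.8%, and CXCL1 and CXCL2 72.1%. These matches describe letters and show no binding.

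**Figure D1:**
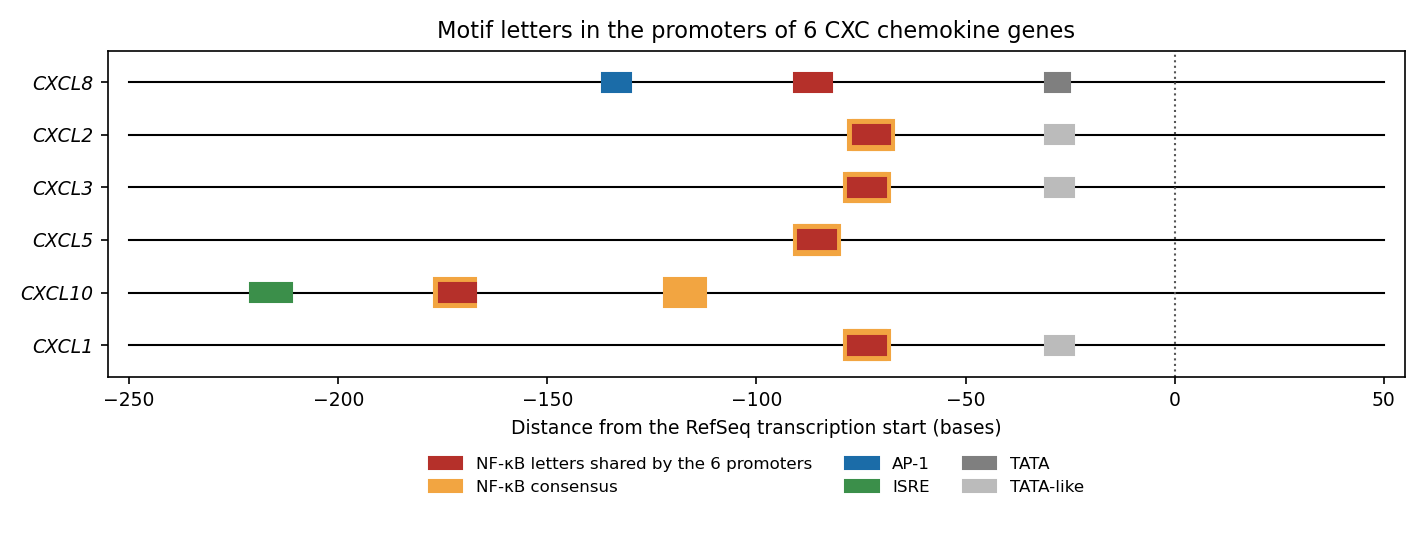
Positions of motif matches in 6 CXC chemokine promoters, in bases from the RefSeq transcription start (dotted line at 0), with 1 horizontal line per promoter. The NF-κB letters shared by the 6 promoters (red) begin at -176 in CXCL10 and between -91 and -77 in the others.

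CXCL8 had the most counts of the 7 members in every library. At 4 h its level was 1273 and 507.5 CPM in untreated dHL-60, 12680 and 12510 CPM with 1 µg/ml LTA, and 19340 and 15660 CPM with 10 µg/ml. Every LTA library at 4 h was far above both untreated ones, and the untreated libraries were themselves spread widely. CXCL8 made up 1.06% to 1.59% of all counts in the 4 LTA libraries at 4 h, and 89.4% to 97% of the counts of the 7 members together in the dHL-60 libraries. Per kb of exon it ranked 4 of 23195 genes with an exon length in both LTA groups at 4 h, and 104 in untreated cells.

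At 24 h CXCL8 was lower throughout, at 100.3 and 60.4 CPM in untreated dHL-60, 304.7 and 248.8 CPM with 1 µg/ml and 831 and 1022 CPM with 10 µg/ml. The 3 groups did not overlap at this time and stood in the order of the dose. In order of mean level, the 4 h LTA groups came first. Cells at 24 h in 10 µg/ml and untreated cells at 4 h followed, and their libraries overlapped. Then came 1 µg/ml at 24 h, untreated dHL-60 at 24 h and, last, all uHL-60 libraries.

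**Figure D2:**
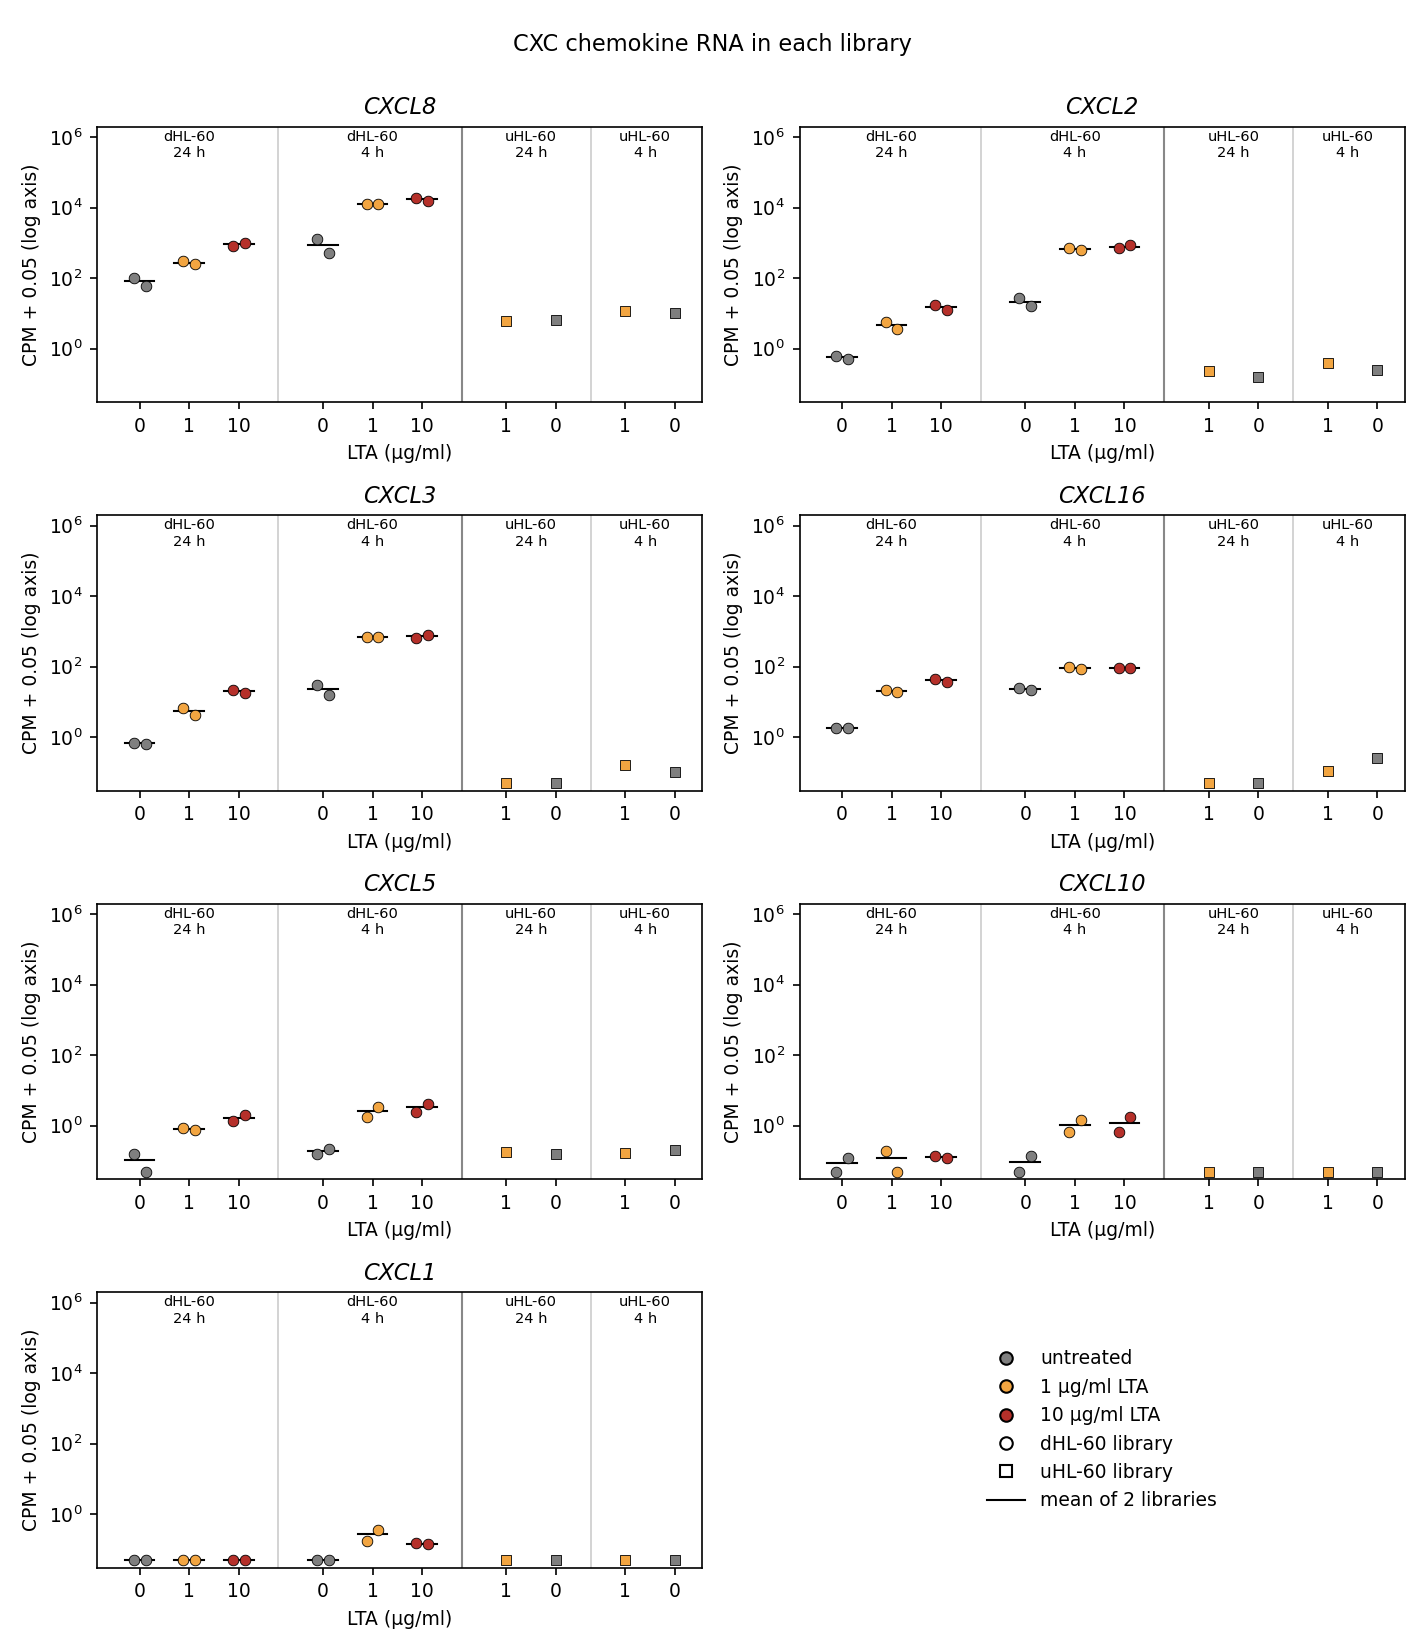
CPM of each member in each library (points; log axis, 0.05 added so that 0 can be drawn), with dHL-60 left and uHL-60 right and the mean of 2 libraries as a line. CXCL8 reaches 19340 CPM with LTA at 4 h, CXCL2 and CXCL3 pass 640 CPM there, and CXCL1 stays below 0.4 CPM everywhere.

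CXCL2 and CXCL3, the macrophage inflammatory proteins that act on CXCR2, had almost the same profile. At 4 h CXCL2 was at 26.8 and 15.8 CPM in untreated dHL-60, 703 and 640.5 CPM with 1 µg/ml LTA, and 694 and 843 CPM with 10 µg/ml. CXCL3 was at 29.5 and 16 CPM untreated, 694.6 and 674.5 CPM with 1 µg/ml and 669.4 and 799.1 CPM with 10 µg/ml. For both genes the LTA libraries of the 2 doses overlapped and lay well above the untreated libraries.

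At 24 h both genes had dropped below 1 CPM without LTA. CXCL2 was at 0.588 and 0.448 CPM untreated, 5.63 and 3.49 CPM with 1 µg/ml and 17.2 and 12.3 CPM with 10 µg/ml. CXCL3 was at 0.642 and 0.598 CPM untreated, 6.51 and 4.15 CPM with 1 µg/ml and 21.5 and 18.4 CPM with 10 µg/ml. The 3 groups were separate for each gene. The CXCL2 to CXCL3 count ratio stayed between 0.672 and 1.05 over the 12 dHL-60 libraries. Across those libraries, with log2 CPM, CXCL3 was the gene most like CXCL2 of 9406 compared (Pearson r = 0.999, n = 12 libraries that share treatments), followed by IL1A and TRAF1 (r = 0.997 each). CXCL2, TRAF1 (r = 0.998) and G0S2 (r = 0.996) were most like CXCL3, and RAB20, TNF (r = 0.995 each) and CXCL3 (r = 0.994) most like CXCL8.

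CXCL5, another CXCR2 ligand, stayed rare, with 2 and 0 counts in untreated dHL-60 at 24 h, 11 and 11 counts with 1 µg/ml LTA and 16 and 28 counts with 10 µg/ml. At 4 h it had 1 and 2 counts untreated, 14 and 42 with 1 µg/ml and 25 and 43 with 10 µg/ml. Each LTA library was above each untreated one, while the doses overlapped at 4 h. The genes with the most similar profile were MREG, UGP2 (r = 0.975 each) and CCL5 (r = 0.972).

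CXCL1, whose promoter is the nearest to that of CXCL3, was almost silent. It had 1 and 4 counts with 1 µg/ml LTA at 4 h, 1 and 1 counts with 10 µg/ml at 4 h, and 0 counts in the other 12 libraries, which allows up to 0.309 CPM in a single library. It was too low to be tested. Its 5 counts with 1 µg/ml at 4 h were 1.72-fold above a floor of 3 counts over the untreated group. That ratio leaves out the counting error of the 5 counts, so it does not show a difference.

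CXCL16, the membrane-anchored chemokine, differed in profile from CXCL2, CXCL3 and CXCL8. At 4 h it was at 24.1 and 21.4 CPM in untreated dHL-60, 100 and 84.8 CPM with 1 µg/ml LTA and 92 and 90 CPM with 10 µg/ml. At 24 h it was at 1.71 and 1.72 CPM untreated, 21.1 and 18.5 CPM with 1 µg/ml and 45.5 and 35.9 CPM with 10 µg/ml. The doses overlapped at 4 h and were separate at 24 h. The genes nearest to it in profile were NDRG2 (r = 0.997), CDKN1A and HIP1 (r = 0.994 each). None of them was shared with another member, which was also so for the nearest genes of CXCL5 and CXCL10. The correlation of CXCL16 was 0.899 with CXCL8, 0.909 with CXCL2 and 0.918 with CXCL3. The sparse CXCL5 (0.811) and CXCL10 (0.844) were less like CXCL8.

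CXCL10 was detected at a few counts only, nearly all of them with LTA at 4 h. It had 0 and 1 counts in untreated dHL-60 at 4 h, 5 and 18 with 1 µg/ml and 6 and 18 with 10 µg/ml. At 24 h it had 0 and 1 counts untreated, 2 and 0 with 1 µg/ml and 1 and 1 with 10 µg/ml, so no group stood apart. TRMT6 (r = 0.964), ERN1 (r = 0.963) and ETV3 (r = 0.96) were most like it, over counts this low. CXCL5 and CXCL10 passed the filter on low counts only through their LTA libraries, and so had to differ to be tested.

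With LTA at 4 h, CXCL2, CXCL3, CXCL8 and CXCL16 rose at both doses. CXCL5 and CXCL10 were called higher too, but had to differ to be tested and so add nothing to a count of members. At 1 µg/ml, 38.7% of the 11866 genes tested were called, 18.7% of all tested as higher, and at 10 µg/ml 41.3% were called, 20% as higher (edgeR quasi-likelihood test, Benjamini-Hochberg adjusted p under 0.05). Fold changes at 1 µg/ml were 31.7 for CXCL2 (log2 4.99 ± 0.24 SE, adjusted p = 3.66e-08), 30.2 for CXCL3 (log2 4.92 ± 0.23), 14.1 for CXCL8 (log2 3.82 ± 0.33) and 4.06 for CXCL16 (log2 2.02 ± 0.15). At 10 µg/ml they were 36.4 for CXCL2 (log2 5.19 ± 0.24), 32.6 for CXCL3 (log2 5.03 ± 0.23), 19.7 for CXCL8 (log2 4.30 ± 0.33) and 4.02 for CXCL16 (log2 2.01 ± 0.15), with adjusted p from 2.55e-08 to 1.44e-06. The sparse CXCL5 rose too (56 and 68 counts summed over the libraries with 1 and with 10 µg/ml, against 3 untreated), with a depth-scaled ratio of 19.2 (95% exact binomial interval 6.25 to 96.1) at 1 µg/ml and of 23.4 (7.68 to 116) at 10 µg/ml, intervals that cover counting error only.

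Without untreated replicate 1 at 4 h, which held most of the untreated CXCL8, the CXCL8 log2 fold change at 4 h was 4.65 at 1 µg/ml and 5.13 at 10 µg/ml. The CXCL10 ratio at 4 h was 23.7 (3.85 to 976) at 1 µg/ml and 24.8 (4.04 to 1020) at 10 µg/ml, and its calls (adjusted p = 0.0109 and 0.00842) hung on single libraries: they were lost without untreated replicate 1 (adjusted p = 0.0621 and 0.0504) and without replicate 2 of the LTA group (adjusted p = 0.119 and 0.0955). Without untreated replicate 2, where untreated CXCL10 is at 0, both calls held and the fitted value is no bound.

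At 24 h CXCL2, CXCL3, CXCL8 and CXCL16 rose at each dose. Of all genes, 21.2% were called and 13.9% called higher at 1 µg/ml, and 42.6% and 23.6% at 10 µg/ml. Called lower were 7.26% and 19% of genes at 1 and 10 µg/ml. At 1 µg/ml CXCL16 rose 11.6-fold (log2 3.54 ± 0.22, adjusted p = 1.67e-07), CXCL2 8.51-fold (log2 3.09 ± 0.52), CXCL3 8.47-fold (log2 3.08 ± 0.48) and CXCL8 3.47-fold (log2 1.80 ± 0.34, adjusted p = 0.00233). At 10 µg/ml CXCL3 rose 31.9-fold, CXCL2 27.7-fold (log2 4.79 ± 0.51), CXCL16 23.9-fold (log2 4.58 ± 0.22) and CXCL8 11.7-fold (log2 3.55 ± 0.34), with adjusted p from 6.31e-09 to 6.11e-06. CXCL5 was also called, with 22 counts summed at 1 µg/ml and 44 at 10 µg/ml against 2 untreated, a depth-scaled ratio of 12.2 (3 to 107) at 1 µg/ml and of 26.8 (7 to 228) at 10 µg/ml. At 1 µg/ml that CXCL5 call (adjusted p = 0.01) was lost without untreated replicate 2 (adjusted p = 0.0642) or without LTA replicate 1 (adjusted p = 0.0547). Without either untreated library its fitted fold at 24 h moved by over 1.5 times at both doses, and it stayed called at 10 µg/ml. CXCL10 was not called at 24 h at either dose, with at most 2 counts in any library.

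**Figure D3:**
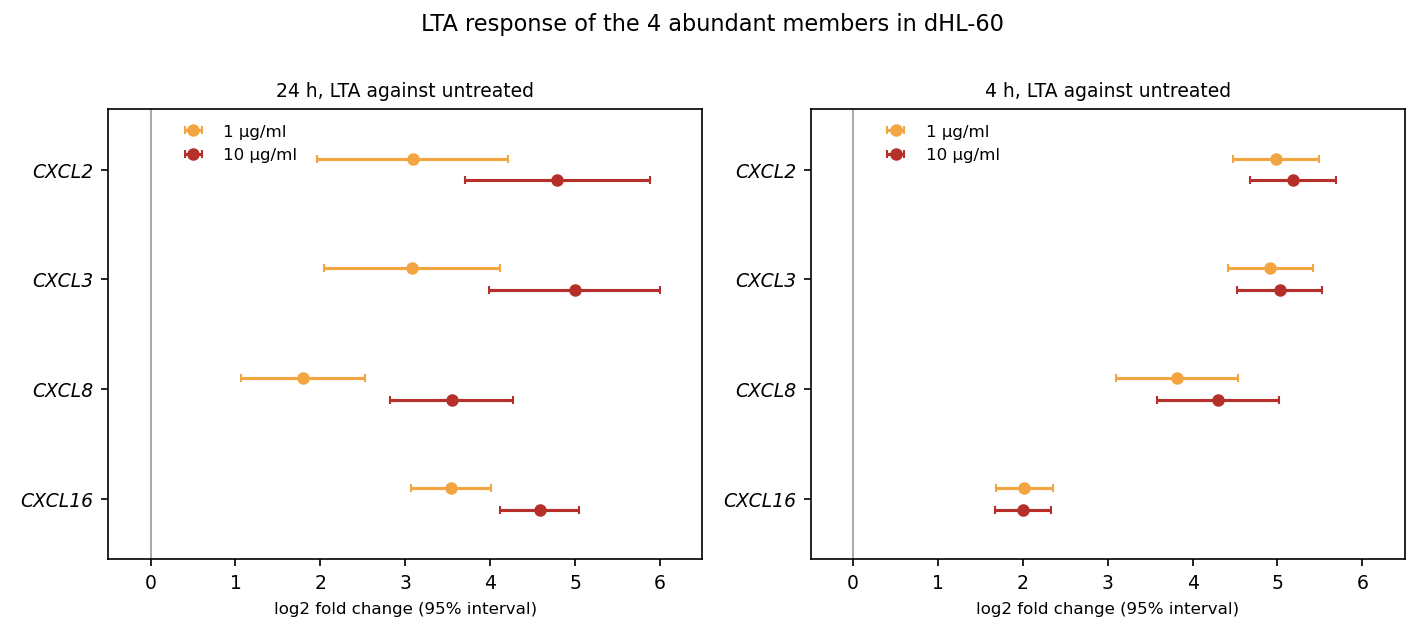
Log2 fold changes of LTA over untreated dHL-60 for the 4 abundant members, with 95% intervals from the edgeR fit, at 24 h (left) and 4 h (right), for 1 µg/ml (orange) and 10 µg/ml (red). At 4 h the intervals of the doses overlap for all 4 genes, while at 24 h the 10 µg/ml points lie to the right of the 1 µg/ml points for all 4 genes.

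The doses differed at 24 h, and a difference was not detected at 4 h. At 24 h, 4 of 6 members were higher with 10 than with 1 µg/ml, in a comparison that called 3.82% of genes, 3.03% as higher and 0.792% as lower. CXCL3 was 3.77-fold higher (log2 1.92 ± 0.27, adjusted p = 0.00243), CXCL8 3.37-fold (log2 1.75 ± 0.33, adjusted p = 0.0136), CXCL2 3.26-fold (log2 1.70 ± 0.29, adjusted p = 0.00534) and CXCL16 2.06-fold (log2 1.05 ± 0.16, adjusted p = 0.00299), each higher in both 10 µg/ml libraries than in both 1 µg/ml libraries. CXCL5 was at log2 1.12 ± 0.50 (adjusted p = 0.201). These dose calls rested on few libraries. Without replicate 2 of the 1 µg/ml group no member was called (adjusted p = 0.108 for CXCL2, 0.0589 for CXCL3, 0.162 for CXCL8 and 0.0761 for CXCL16) and 49 genes were called instead of 453. Without replicate 1 of that group the CXCL8 call was lost (adjusted p = 0.0649, with 191 genes called), and without replicate 1 of the 10 µg/ml group that of CXCL2 (adjusted p = 0.0595, with 73 genes called), although no direction turned.

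At 4 h none of the 6 members was called between the doses (adjusted p = 1 for each, unadjusted p from 0.171 to 0.926). Here 0.00843% of genes were called, 1 of 11866, with 216 at an unadjusted p under 0.05 and 2 called by DESeq2. Without replicate 2 of the 10 µg/ml group 2 genes were called. The 95% intervals of the log2 difference ran from -0.27 to 0.67 for CXCL2, from -0.36 to 0.57 for CXCL3, from -0.23 to 1.20 for CXCL8 and from -0.33 to 0.30 for CXCL16, so a difference of the size seen at 24 h lay outside all 4 intervals. Both 10 µg/ml libraries held more CXCL8 than both 1 µg/ml libraries, a difference the fit did not call.

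Most members were lower at 24 h than at 4 h, with or without LTA. In untreated dHL-60 at 24 h, against 4 h, 4 of 6 members fell, where 40.9% of genes were called and 23.1% as lower. CXCL2 was 39.2-fold lower (log2 -5.29 ± 0.50), CXCL3 35.6-fold (log2 -5.15 ± 0.47), CXCL16 13.1-fold (log2 -3.72 ± 0.22) and CXCL8 11-fold (log2 -3.46 ± 0.34), with adjusted p from 7.35e-08 to 1.22e-05. Without untreated replicate 1 at 4 h the CXCL8 value was -2.63 on the log2 scale. In 1 µg/ml LTA 48.7% of genes were called, 23.3% as lower. CXCL2 was 146-fold lower and CXCL3 127-fold lower there, CXCL8 44.8-fold and CXCL16 4.59-fold. In 10 µg/ml LTA, with 46.8% called and 22.7% as lower, CXCL2 was 51.4-fold lower, CXCL3 36.3-fold, CXCL8 18.6-fold and CXCL16 2.2-fold lower. CXCL10 was called lower in both, but it passed the filter on low counts only through its LTA libraries at 4 h. In 1 µg/ml its call was lost without replicate 2 at 4 h or at 24 h (adjusted p = 0.108 and 0.0706), and in 10 µg/ml likewise (adjusted p = 0.11 and 0.0515). Without replicate 1 of 1 µg/ml at 24 h, which leaves 0 counts in that group, it held. CXCL5 was called lower in 1 µg/ml (22 counts against 56), a call lost without replicate 2 at 4 h or at 24 h (adjusted p = 0.156 and 0.0586), and was not called in 10 µg/ml (adjusted p = 0.0822).

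The response to LTA itself, the log2 fold change over untreated cells, differed between the times at 1 µg/ml in opposite directions for CXCL16 and for CXCL8, CXCL2 and CXCL3. At that dose 4 of 6 members were called, where 20.7% of genes were, 13.3% with the larger response at 24 h and 7.41% with the smaller. The CXCL16 response was larger at 24 h than at 4 h, by 1.52 ± 0.27 on the log2 scale (adjusted p = 0.00115). Those of CXCL8, CXCL2 and CXCL3 were smaller at 24 h, by -2.02 ± 0.47 (adjusted p = 0.00856), -1.90 ± 0.57 (adjusted p = 0.0481) and -1.84 ± 0.54 (adjusted p = 0.0397). The CXCL5 difference, over few counts, was -0.68 ± 1.49 (adjusted p = 0.825), and CXCL10 was not called (adjusted p = 0.476). For 10 µg/ml only CXCL16 was called, in a comparison with 33.7% of genes called, 19.7% with the larger response at 24 h and 14% with the smaller. Its response was larger at 24 h by 2.58 ± 0.27 (adjusted p = 1.26e-05), while CXCL8 was at -0.75 ± 0.47 (adjusted p = 0.24), CXCL2 at -0.39 ± 0.56 (adjusted p = 0.646), CXCL3 at -0.03 ± 0.52 (adjusted p = 0.996) and CXCL5 at 0.10 ± 1.47 (adjusted p = 0.928). Both responses at a dose share no libraries between times, but the 2 doses share the untreated cells.

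At 1 µg/ml the CXCL16 difference was called with any single library left out, and the others were not. The CXCL8 call was lost without untreated replicate 1 at 24 h (adjusted p = 0.0553) and its value reached -2.85 without untreated replicate 1 at 4 h. The CXCL2 and CXCL3 calls were lost without either 1 µg/ml library at 4 h (adjusted p = 0.0579 to 0.0773), without either untreated library at 24 h (0.0941 to 0.317) or without replicate 2 with LTA at 24 h (0.0969 and 0.11), and that of CXCL2 also without untreated replicate 2 at 4 h (0.0602). At 10 µg/ml CXCL8 was called as well without untreated replicate 1 at 4 h (-1.58, adjusted p = 0.00414) and, in a fit with no filter on low counts, at -0.76 (adjusted p = 0.00417).

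**Figure D4:**
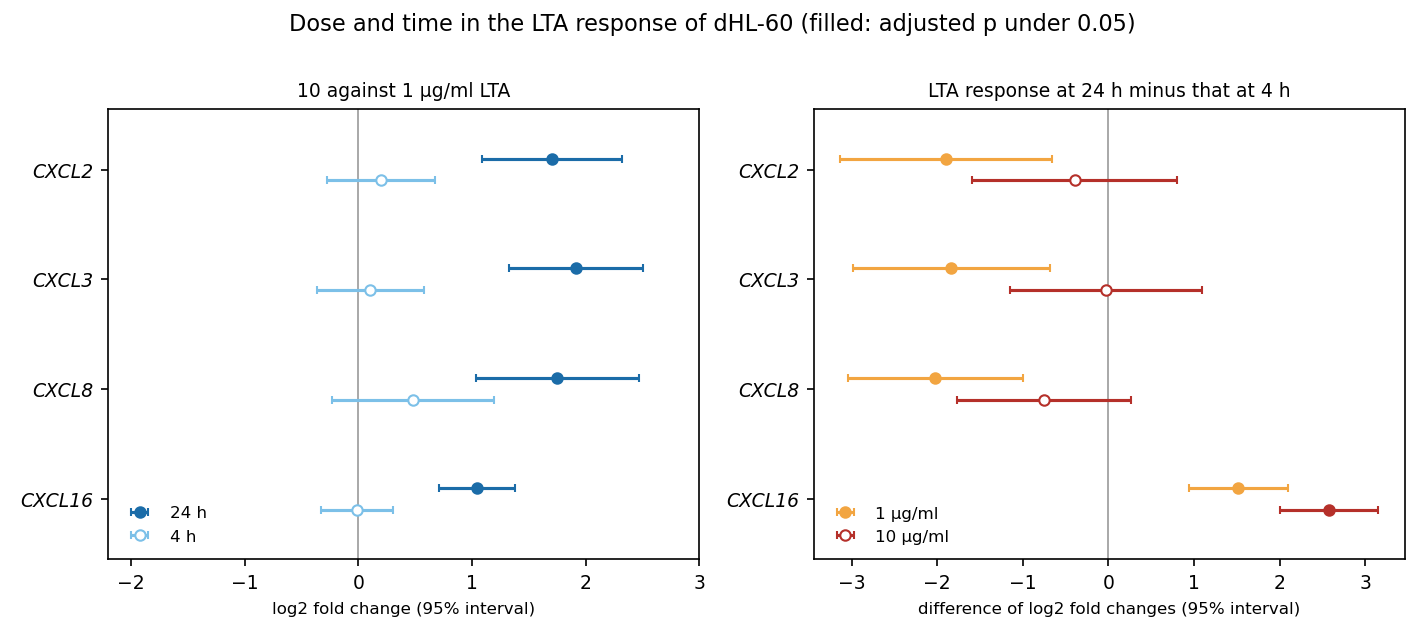
Log2 differences with 95% intervals for the 4 abundant members in dHL-60: 10 against 1 µg/ml LTA at 24 h and 4 h (left), and the LTA response at 24 h minus that at 4 h for each dose (right), filled where the adjusted p was under 0.05. The dose difference is called at 24 h for all 4, and CXCL16 lies right of 0 in the right panel, at 1.52 and 2.58. CXCL8, CXCL2 and CXCL3 are called left of it at 1 µg/ml, and at 10 µg/ml their intervals include 0.

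In uHL-60 the members were low or absent, with or without LTA. CXCL8 was at 6.16 CPM with 1 µg/ml LTA and 6.43 CPM untreated at 24 h, and at 11.4 CPM with LTA and 10.1 CPM untreated at 4 h. Each pair had 1 library per group and the ratios were 0.959 (0.729 to 1.26) at 24 h and 1.13 (0.923 to 1.38) at 4 h, with exact binomial intervals for counting error. Over both times the log2 fold change was 0.08 (95% interval -0.21 to 0.37, adjusted p = 1), in a comparison with 0.209% of genes called, 23 of 11020 (0.0998% higher and 0.109% lower), with 296 at an unadjusted p under 0.05 and 1 called by DESeq2. CXCL2 had 2 to 6 counts per uHL-60 library, CXCL5 2 to 3, CXCL3 0 to 2, CXCL16 0 to 4, and CXCL1 and CXCL10 had none, which allows up to 0.148 to 0.187 CPM each.

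Untreated dHL-60 held more CXCL8 than untreated uHL-60, in a comparison that called 58% of genes, 29.7% as higher. CXCL2, CXCL3 and CXCL16 were tested and called higher as well, but with 0 to 4 counts per untreated uHL-60 library they passed the filter on low counts only through dHL-60, so a count of members called says nothing here. At 4 h CXCL8 had 18293 counts over 2 dHL-60 libraries and 204 in the uHL-60 library, a depth-scaled ratio of 84.7 (73.8 to 97.7), and CXCL16 had 484 counts and 4 counts, a ratio of 114 (44.4 to 421). At 24 h CXCL8 was 13-fold higher (10.9 to 15.7) and CXCL16, with 55 counts in dHL-60 and 0 in uHL-60, at least 11.1-fold higher. Over both times the log2 fold change was 4.88 ± 0.59 for CXCL8 (adjusted p = 0.000765). For CXCL2 it was 5.82 ± 0.86, and its adjusted p (0.000415) is no further evidence, because CXCL2 had to differ to be tested. CXCL3, with 1 count in uHL-60 at 4 h and 0 at 24 h, had a depth-scaled ratio of 447 (79.8 to 17700) at 4 h. At 24 h it was 4.04-fold above the same floor, again without the counting error of the dHL-60 counts. The fitted values moved with the uHL-60 library left out. Without that of 4 h they were 3.63 for CXCL8 and 2.26 for CXCL2, whose call was lost (adjusted p = 0.056), and CXCL3 and CXCL16 were left with 0 uHL-60 counts, against which a fitted value is no bound. Without that of 24 h they were 6.39 for CXCL8 and 6.62 for CXCL2. Differentiation and any batch common to the uHL-60 libraries cannot be told apart.

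The response to 1 µg/ml LTA was larger in dHL-60 than in uHL-60 for CXCL8 at 4 h, by 3.65 ± 0.62 on the log2 scale (95% interval 2.33 to 4.97, adjusted p = 0.00243), and by 4.51 without untreated dHL-60 replicate 1. CXCL8 was the only member called, where 10.3% of 12603 genes were, 5.43% as larger in dHL-60 and 4.91% as smaller. CXCL2 stood at 4.21 ± 1.23 (adjusted p = 0.0867) against 4 to 6 counts per uHL-60 library. It was called by DESeq2 (adjusted p = 0.000616), with no filter on low counts (adjusted p = 0.00379) and without untreated dHL-60 replicate 1 (adjusted p = 0.0344). At 24 h CXCL8 stood at 1.84 ± 0.66 (95% interval 0.43 to 3.26, unadjusted p = 0.0146, adjusted p = 0.197), with 1.63% of genes called, 1.35% as larger. DESeq2 did not call it, and it was called with no filter on low counts (adjusted p = 1.42e-06). The lone uHL-60 libraries were taken to vary like the dHL-60 replicates, and the other members, with 0 to 6 counts per uHL-60 library, were not called at either time.

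Among the other CXC chemokine genes, 2 of 10 listed were tested. CXCL6, a further CXCR2 ligand, rose with the members, to 63.9 and 84.9 CPM with 1 µg/ml and 88.1 and 94.5 CPM with 10 µg/ml at 4 h, against 1.85 and 2.57 CPM untreated. Its log2 fold change at 4 h was 5.05 ± 0.34 at 1 µg/ml and 5.35 ± 0.34 at 10 µg/ml. At 24 h it had 29 and 13 counts with 1 µg/ml and 63 and 66 with 10 µg/ml, against 5 and 0 untreated, and was called at both doses, at 1 µg/ml not without LTA replicate 1 (adjusted p = 0.0718). Without either untreated library the CXCL6 value at 24 h moved by over 1.5 times. PPBP, the platelet CXC chemokine, was called at 24 h with 18 and 37 counts at 10 µg/ml against 2 and 4 untreated. At 1 µg/ml its call was lost without either LTA library or untreated replicate 1 (adjusted p = 0.102 to 0.245), and at 10 µg/ml its value moved by over 1.5 times without either untreated library, to 2.78 and 4.16.

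CXCR1 and CXCR2, the receptors of the neutrophil-attracting members, were lower with LTA at 4 h, and of 5 CXC chemokine receptors tested 2 fell and 1 rose at each dose. CXCR2 was at 6.83 and 5.67 CPM with 1 µg/ml and 5.82 and 6.05 CPM with 10 µg/ml at 4 h, against 41.5 and 28.5 CPM untreated, and fell by 2.50 (SE 0.23) and 2.55 (SE 0.23) on the log2 scale. CXCR1 had 3 and 9 counts with 1 µg/ml and 1 and 7 with 10 µg/ml, against 27 and 37 untreated, and fell as well (log2 -2.37 ± 0.62 and -2.91 ± 0.69). Its value reached -2.96 without replicate 2 at 1 µg/ml, and -2.15 and -4.78 without replicates 1 and 2 at 10 µg/ml. Called lower at 4 h were 20.1% of all genes at 1 µg/ml and 21.3% at 10 µg/ml. At 24 h CXCR2 was at 21.6 and 17.7 CPM with 1 µg/ml and 13.4 and 17.5 CPM with 10 µg/ml, against 20.6 and 23.1 CPM untreated, and neither receptor was called. CXCR3 and CXCR4 were not called at either time. CXCR5, the B-cell chemokine receptor, rose at 4 h, with 137 and 78 counts at 1 µg/ml and 212 and 130 at 10 µg/ml against 27 and 8 untreated. Its log2 fold change at 1 µg/ml ranged from 1.87 to 4.03 with 1 of the 4 libraries left out, and at 10 µg/ml it was 4.60 and 2.57 without untreated replicates 1 and 2. At 24 h, against 0 counts untreated, its call at 10 µg/ml (19 and 10 counts) was lost without untreated replicate 1 or LTA replicate 1 (adjusted p = 0.0726 and 0.0627).

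All 11 NF-κB subunits and inhibitors rose at 4 h at both doses, with a median log2 fold change of 2.3 at 1 µg/ml and 2.27 at 10 µg/ml, against -0.04 over all genes at each dose. Called higher at 4 h were 18.7% of all genes at 1 µg/ml and 20% at 10 µg/ml, and at 24 h 13.9% and 23.6%. The inducible regulator NFKBIZ rose by 3.63 ± 0.28 and 3.79 ± 0.28, the deubiquitinase TNFAIP3 by 3.20 ± 0.28 and 3.40 ± 0.28, the subunit NFKB2 by 2.86 ± 0.22 and 2.90 ± 0.22, and the inhibitor NFKBIA by 2.64 ± 0.27 and 2.76 ± 0.27 (log2, 1 and 10 µg/ml). Without untreated replicate 1 at 4 h NFKBIA stood at 3.26 and 3.37. At 24 h 8 of 11 rose at 1 µg/ml and 10 of 11 at 10 µg/ml, with medians of 1.53 and 2.29 against 0.01 and -0.01 over all genes. NFKBIZ was again the highest, at 4.04 ± 0.47 and 5.22 ± 0.47, and reached 4.93 and 6.11 without untreated replicate 1 and 3.44 at 1 µg/ml without LTA replicate 1. In all settings tried, including other scalings and each library left out, 7 to 9 of them were called higher at 24 h at 1 µg/ml, 9 to 10 at 10 µg/ml and 11 at 4 h, and none lower.

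**Figure D5:**
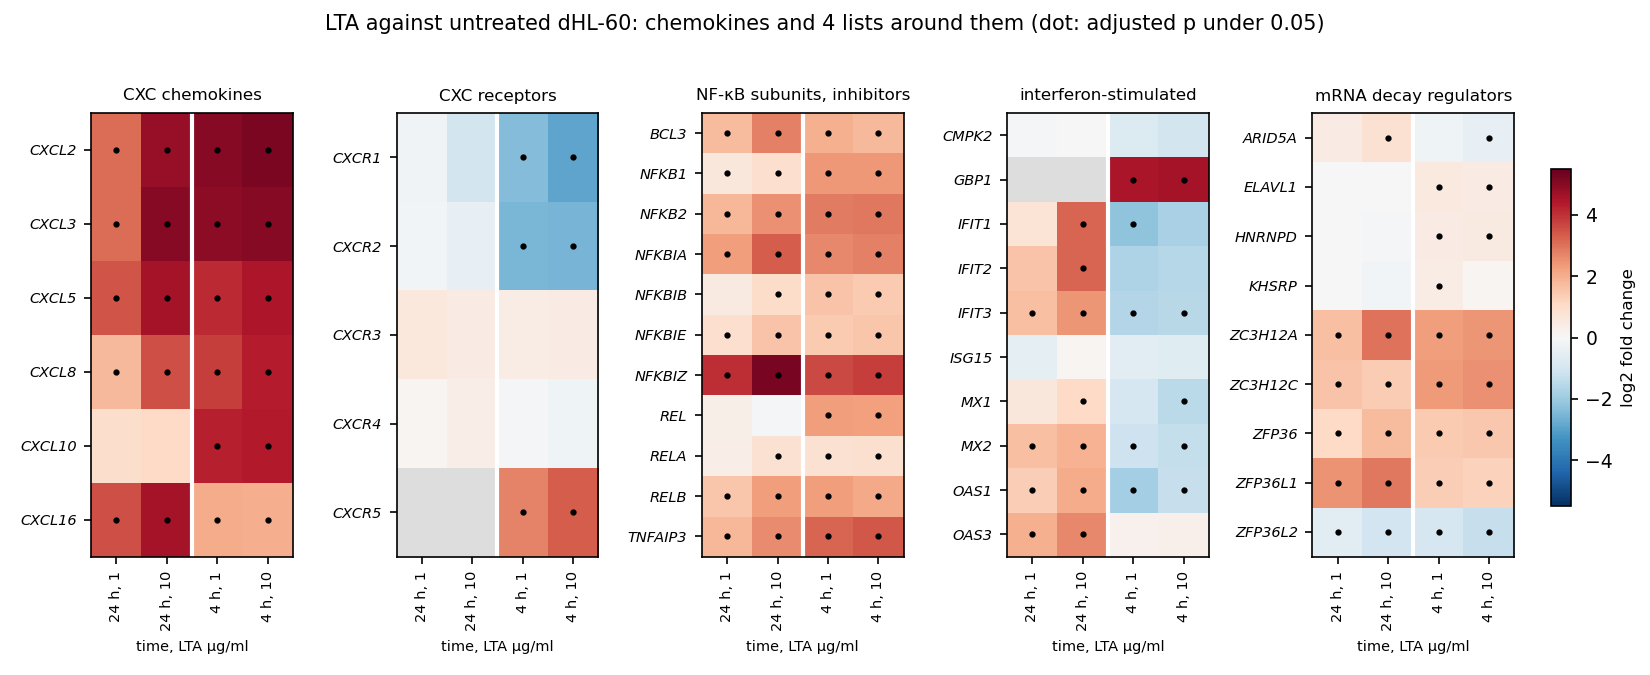
Log2 fold changes of LTA over untreated dHL-60 (colour) for the 6 tested CXC chemokines, their receptors, NF-κB genes, interferon-stimulated genes and regulators of mRNA decay, at 24 h (left pair of columns) and 4 h (right pair). A dot marks an adjusted p under 0.05. Grey marks comparisons in which the untreated or the LTA group had 0 counts, and no dot is drawn there. Chemokines and NF-κB genes are red at both times, CXCR1 and CXCR2 blue at 4 h, and most interferon-stimulated genes blue at 4 h and red at 24 h.

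Proteases that release or trim chemokines changed in different directions. ADAM17, a sheddase related to ADAM10, rose at 4 h (log2 1.63 ± 0.15 at 1 µg/ml and 1.83 ± 0.15 at 10 µg/ml), when it was at 195.4 and 173.7 CPM with 1 µg/ml and 236.9 and 185.4 CPM with 10 µg/ml, against 61.5 and 57.8 CPM untreated. ADAM10, the constitutive sheddase of CXCL16, was at log2 0.14 ± 0.21 and 0.18 ± 0.21 at 4 h, not called. At 24 h ADAM10 was called (log2 0.73 ± 0.21 and 0.67 ± 0.21), at 1 µg/ml not without untreated replicate 2 or either LTA library (adjusted p = 0.212, 0.152 and 0.0617), and at 10 µg/ml not without replicate 2 of either group (adjusted p = 0.185 and 0.268). The gelatinase MMP9, which trims CXCL8 in vitro, rose at 24 h by 4.16 ± 0.29 and 5.17 ± 0.29. Of the neutrophil serine proteases, CTSG fell by 1.79 (SE 0.17) and 2.02 (SE 0.17), ELANE by 1.80 (SE 0.28) and 2.15 (SE 0.28), and PRTN3 changed by -2.34 ± 0.36 and -3.25 ± 0.36 at 24 h (log2). Without replicate 2 at 1 µg/ml ELANE and PRTN3 stood at -2.42 and -3.20.

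Of 10 interferon-stimulated genes tested, the usual companions of CXCL10, 1 was called higher and 4 lower at each dose at 4 h, with a median log2 fold change of -1.02 at 1 µg/ml and -1.28 at 10 µg/ml. Of all genes, 18.7% were called higher and 20.1% lower at 1 µg/ml at that time, and 20% and 21.3% at 10 µg/ml. MX2, an antiviral GTPase, fell by 1.13 (SE 0.27) and 1.31 (SE 0.28), and IFIT3 by 1.60 (SE 0.42) and 1.54 (SE 0.42). Without replicate 2 at 1 µg/ml IFIT3 stood at -2.97, and without replicate 1 at 10 µg/ml it was not called (adjusted p = 0.0944). The gene called higher was GBP1, with 25 and 47 counts at 1 µg/ml and 30 and 45 at 10 µg/ml against 2 and 1 untreated. GBP1 did not pass the filter on low counts through these untreated libraries, so its call adds nothing to a count of genes. Its value moved by over 1.5 times without untreated replicate 1. At 24 h, where CXCL10 had at most 2 counts per library, 4 rose at 1 µg/ml and 8 at 10 µg/ml and none fell, with medians of 1.46 and 2.22, where 13.9% and 23.6% of all genes were called higher. OAS3 rose by 1.94 ± 0.29 and 2.66 ± 0.29 and MX2 by 1.66 ± 0.26 and 1.90 ± 0.26. Over all settings, 1 to 6 were called lower at 4 h at 10 µg/ml, 3 to 5 at 1 µg/ml, and 2 to 4 and 6 to 9 higher at 24 h at 1 and 10 µg/ml. The fewest lower calls at 10 µg/ml came without replicate 1 of that group, which took those of IFIT3, MX1 and OAS1. At 24 h and 1 µg/ml only 2 rose without untreated replicate 1 or 2, each of which took the calls of IFIT3 (adjusted p = 0.0861 and 0.0622) and OAS1 (adjusted p = 0.0568 and 0.0936). IFNB1, which encodes interferon beta, had 1 count in all 16 libraries together. The interferon-responsive factor IRF8 rose at 4 h by 1.87 ± 0.22 and 1.86 ± 0.22, and IRF7 at 24 h by 1.52 ± 0.18 and 2.17 ± 0.18.

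CXCL1, CXCL2, CXCL3 and CXCL8 transcripts carry AU-rich elements that decay factors bind, and several genes listed as regulators of such decay rose too. The counts below do not separate regulators that speed decay from those that slow it or act by other routes, and mRNA decay was not measured. At 4 h 7 of 9 rose and 1 fell at 1 µg/ml, where 18.7% of all genes were called higher and 20.1% lower, and 6 rose and 2 fell at 10 µg/ml, where 20% and 21.3% were. At 24 h 4 rose at 1 µg/ml and 5 at 10 µg/ml, and 1 fell at each, where 13.9% and 23.6% of all genes were called higher and 7.26% and 19% lower. The median log2 fold change of the 9 was 0.55 and 0.48 at 4 h, against -0.04 over all genes, and 0.47 and 0.82 at 24 h, against 0.01 and -0.01. ZFP36 (tristetraprolin), which recruits deadenylases, rose by 1.43 ± 0.23 and 1.49 ± 0.23 at 4 h and by 1.10 ± 0.24 and 1.76 ± 0.24 at 24 h, at 1 µg/ml and 24 h not without untreated replicate 1 (adjusted p = 0.0709). The endonuclease ZC3H12A (regnase-1) rose by 2.31 ± 0.21 and 2.42 ± 0.21 at 4 h and by 1.66 ± 0.22 and 2.98 ± 0.22 at 24 h. ZFP36L1 rose by 2.47 ± 0.14 and 2.88 ± 0.14 at 24 h, and ZFP36L2 fell in all 4 comparisons. Several of the 4 h calls were of small changes that rested on single libraries. At 1 µg/ml the count rising dropped to 5 without untreated replicate 2, where HNRNPD (log2 0.44 in the full fit) and KHSRP (0.40) were not called (adjusted p = 0.0701 and 0.106), and without LTA replicate 1, where ELAVL1 (0.55) and KHSRP were not (0.0526 and 0.222). KHSRP was also not called without untreated replicate 1 (0.0839), nor HNRNPD without LTA replicate 2 (0.092). At 10 µg/ml 5 rose without untreated replicate 2 or LTA replicate 1, which took the call of ELAVL1 (adjusted p = 0.0803 and 0.141), and without LTA replicate 2, which took that of HNRNPD (0.0668). The fall of ARID5A at 10 µg/ml (log2 -0.47) was not called without untreated replicate 1 or either LTA library (adjusted p = 0.1 to 0.248), which left ZFP36L2 alone.

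The receptors and adaptors through which cells sense LTA changed alongside. Of 10 tested, 5 rose and 1 fell at 4 h at each dose, where 18.7% of all genes were called higher and 20.1% lower at 1 µg/ml, and 20% and 21.3% at 10 µg/ml. At 24 h 6 rose at each dose, where 13.9% and 23.6% of all genes were called higher. The median log2 fold change of the 10 was 0.34 and 0.37 at 4 h, against -0.04 over all genes, and 1.09 and 1.22 at 24 h, against 0.01 and -0.01. TLR2, the receptor itself, rose by 2.61 ± 0.16 and 2.69 ± 0.16 at 4 h and by 1.32 ± 0.16 and 2.02 ± 0.16 at 24 h (log2, 1 and 10 µg/ml). The signalling kinase IRAK2 rose by 4.03 ± 0.23 and 4.20 ± 0.23 at 4 h and by 2.55 ± 0.40 and 4.62 ± 0.38 at 24 h, where without untreated replicate 1 it stood at 3.23 and 5.30. CD14, the co-receptor and a monocyte marker, rose by 2.07 ± 0.15 and 3.21 ± 0.15 at 24 h. At 4 h its calls (log2 0.55 and 0.44) and those of the ubiquitin ligase TRAF6 (0.45 and 0.47) rested on single libraries, as did the fall of TLR6 at 1 µg/ml (-0.76). Without untreated replicate 2, or without LTA replicate 1, 3 rose and 0 fell at 1 µg/ml, with CD14 (adjusted p = 0.0941 and 0.0504), TRAF6 (0.0635 and 0.0516) and TLR6 (0.0856 and 0.0755) not called. TRAF6 was lost there with any other library of that comparison left out too (0.0603 and 0.0742). At 10 µg/ml 3 rose without LTA replicate 2, with CD14 (adjusted p = 0.187) and TRAF6 (0.0904) not called, and CD14 was not called without untreated replicate 2 (0.224). At 24 h 6 rose at each dose with any single library left out.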

How the data were processed

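RNA from 12 dHL-60 and 4 uHL-60 libraries was made into stranded mRNA libraries, per the labels. The authors deposited whole-number read counts per gene symbol without normalization, and groups were taken from the sample titles. Per the submitters' processing notes the tools, listed without roles, were edgeR 3.36.0 and DESeq2 1.28.0, Subread with featureCounts 2.0.1, the aligner HISAT2 2.1.0 and fastp 0.20.0, on GRCh38. Whether reads were counted by strand is not stated in those notes or in the labels. The uHL-60 columns were realigned to symbols in plain character order, which moves 1343 of 23575 symbols and 0 members (correlation of mean log2(count + 1) with dHL-60 over the moved symbols 0.252 as deposited and 0.896 realigned).

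The deposited counts were tested with edgeR 4.0.16 in R 4.3.3 (quasi-likelihood F test, two-sided, TMM scaling, filterByExpr, Benjamini-Hochberg over all genes tested, adjusted p under 0.05), with standard errors from the fitted model. The 12 dHL-60 libraries shared 1 estimate of spread. Comparisons of untreated cells (6 libraries) and within uHL-60 (4 libraries) had time as a term, and differences of responses were interactions. Ratios of summed counts carry exact binomial intervals of 95%, which cover counting error only. RefSeq promoters were matched by symbol.

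Alternatives were other scalings, no filter on low counts, DESeq2 1.42.0, a replicate block, the uHL-60 columns as deposited and leaving out each library. Named genes are the members, at most 4 called genes per list and comparison by size of change, 3 genes per member most like it among those of at least 5 CPM, and a few list genes outside that rule, chosen after their values were seen. Members and lists were chosen with earlier results of these data known. The test was also run on simulated data with known changes, whose outcome is not reported here.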

Additional observations from a re-analysis of the deposited data

Results flagged for a closer look

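Differences between responses under the same contrast passed the test for 6 member results. The CXCL16 response to LTA, as a ratio to untreated cells, was larger at 24 h than at 4 h at both doses. The difference was 1.52 (SE 0.27) at 1 µg/ml and 2.58 (SE 0.27) at 10 µg/ml on the log2 scale. CXCL16 itself was lower at 24 h than at 4 h, 4.59-fold in 1 µg/ml, 2.2-fold in 10 µg/ml and 13.1-fold in untreated cells. The CXCL8, CXCL2 and CXCL3 responses to 1 µg/ml were smaller at 24 h than at 4 h, with differences of -2.02 (SE 0.47), -1.90 (SE 0.57) and -1.84 (SE 0.54). The CXCL8 response to 1 µg/ml at 4 h was larger in dHL-60 than in uHL-60, by 3.65 (SE 0.62). The uHL-60 side of that difference rests on 1 library per group. No group had 4 or more libraries, so no single library was tested as standing apart.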

How the results depend on the processing

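Of 793 member values recomputed, 756 kept their side of the threshold, 31 lost a call and 6 gained one. Among values called in either fit, 0 turned direction. Some values called in neither fit did change sign and were counted as the same. The CXCL10 log2 fold change at 24 h and 1 µg/ml was 0.95, and ran from -2.04 to 2.99 with single libraries left out. Other scalings (DESeq2 size factors, upper quartile) and the uHL-60 columns as deposited changed no member call. With no filter on low counts, genes called between doses numbered 22 at 4 h and 1354 at 24 h, members called for the 10 µg/ml response between times 2, for the dHL-60 minus uHL-60 response 2 at 4 h and 1 at 24 h, and all genes for that response at 24 h 652. DESeq2 called 2 genes between doses at 4 h and 744 at 24 h, 1 within uHL-60, and 2 members at 4 h and 391 genes at 24 h for the dHL-60 minus uHL-60 response. The causes were not tested.

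With each library left out, members called ranged from 1 to 4 for the 1 µg/ml response between times, 1 to 2 for the 10 µg/ml response, 1 to 2 for the dHL-60 minus uHL-60 response at 4 h and 0 to 4 between doses at 24 h. All genes called ranged from 3181 to 4355 for 10 µg/ml at 4 h, 1139 to 1758 for 1 µg/ml at 24 h, 3138 to 4226 for untreated cells between times, 1614 to 2270 and 2660 to 4051 for the 1 and 10 µg/ml responses between times, 1 to 2 and 49 to 662 between doses at 4 h and 24 h, and 88 to 222 for the dHL-60 minus uHL-60 response at 24 h. Leaving out uHL-60 libraries within uHL-60 left no residual degrees of freedom.

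Replicate numbers do not mark a shared batch in the labels, and deviations of same-numbered libraries correlated between -0.42 and 0.57 over 15 pairs of groups, 6 of them over 0.1. With the replicate number as a block no member call changed (6 members at 4 h and 5 at 24 h for each dose, 4 between doses at 24 h), and genes called between doses at 24 h numbered 663 against 453. Low counts limit CXCL1, CXCL5, CXCL10 and all members but CXCL8 in uHL-60.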
